A study of Rattus norvegicus with 12 samples.

Results

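Signals of 10 genes that mark tissue macrophages were followed in rat esophagus during chemical carcinogenesis. The genes were Csf1r, Cd68, Lyz2, Cd163, Mrc1, C1qa, C1qb, C1qc, Cd14 and Fcgr2b, and they were taken by the gene symbol that the platform annotation gives a probe set. All 10 were measured, each by 1 probe set, among 31042 probe sets tested and 14217 named genes. The study used 12 arrays in 4 groups of 3. Rats in the NMBA groups had received N-nitrosomethylbenzylamine (NMBA), a nitrosamine that gives rise to squamous tumors of the esophagus, and were sampled at week 6, week 15 or week 29. NMBA was given subcutaneously at 0.3 mg/kg in 0.2 ml, 3 times a week over 5 weeks, and the labels' protocols name a mixture of DMSO and water as the solvent given in its place. The sources used here give no strain or age, nor the week at which normal controls were taken, so the time between control and NMBA samples is unknown. RNA is described as coming from esophagus stripped of submucosa and muscle, although muscle genes gave signal on every array. No label ties an array to its own animal. The p-values therefore measure only the spread among the samples, which may be technical.

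Macrophages live in most tissues, where they take up dead cells, microbes and protein complexes and digest them in lysosomes. Their survival depends on colony stimulating factor signals through the receptor encoded by Csf1r. Many resident macrophages carry the scavenger receptor CD163 and the mannose receptor, and they are a main source of C1q, the protein that starts the classical complement pathway. In squamous epithelium they lie mostly in the connective tissue beneath the epithelial layer, and Langerhans cells lie within it.

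A moderated F test across the 4 groups called 2 of 10 macrophage genes, where it called 35.1% of all probe sets. Most of the genes went up and down together from array to array. Only Cd14, the endotoxin co-receptor, and Fcgr2b, the inhibitory receptor for immune complexes, passed the test against control, both lower at week 29. Cd14 decreased by 28.1% (log2 difference -0.48 ± 0.14 SE, n = 3 per group, adjusted p = 0.0434) and Fcgr2b decreased by 47.1% (-0.92 ± 0.24, adjusted p = 0.0272). Neither call was stable: on leaving out 1 array, Cd14 stayed called in 4 of 12 fits and Fcgr2b, a dim signal, in 7 of 12. Csf1r, Cd163, Mrc1, the 3 C1q genes, Cd68 and Lyz2 did not pass against control at any week. Signals are log2 values of a probe set, group values are mean ± SD of 3 arrays, and a gene was called at a Benjamini-Hochberg adjusted p under 0.05 over all 31042 probe sets in limma's moderated test. Probe sets bind with different strength, so a level is compared between arrays and never between genes.

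**Figure D1:**
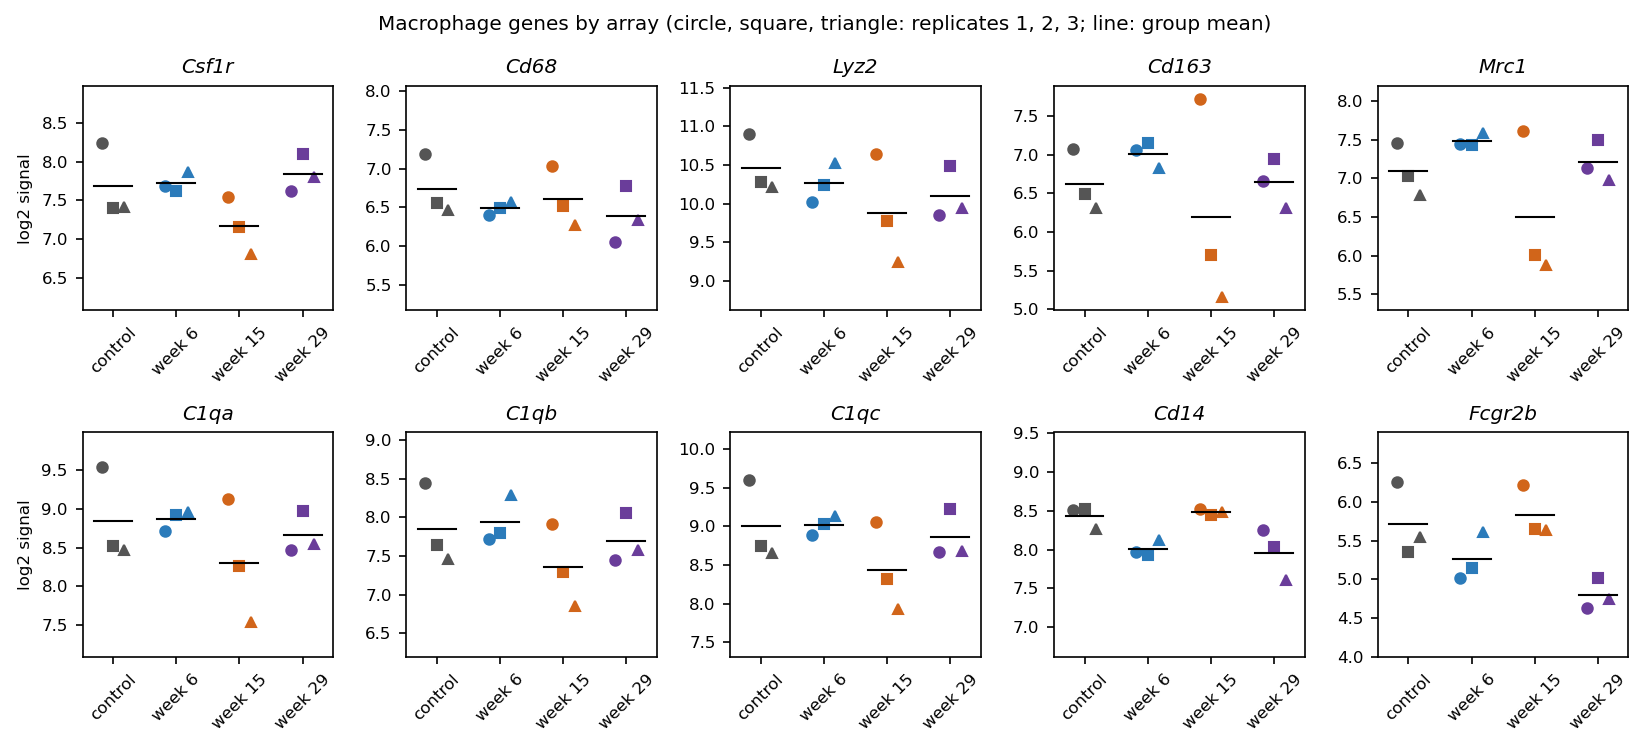
Log2 signal of each of the 10 macrophage genes in each of the 12 arrays, by group. Each symbol is an array, circles, squares and triangles mark replicates 1, 2 and 3, and the line is the group mean. The points of Cd163 at week 15 lie between 5.16 and 7.72, and those of Cd14 at week 15 between 8.45 and 8.52.

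The arrays were alike in overall level, with median log2 signals of 6.41 to 6.48 and values from 2.49 to 14.71. The skeletal muscle score, the mean signal of 30 muscle genes, ranged over 11.99 to 12.40 in the control arrays, 12.69 to 12.72 in those of week 6, 10.35 to 11.93 in those of week 15 and 12.49 to 12.73 in those of week 29. All of these scores lay above the array medians, so muscle RNA cannot be taken as absent. The GAPDH 3′ minus 5′ control signal, which is larger in degraded RNA, was 0.22 to 0.53 in the control arrays, 0.07 to 0.15 in the week 6 arrays, 0.22 to 0.60 in the week 15 arrays and 0.13 to 0.21 in the week 29 arrays. Adgre1, the F4/80 macrophage marker, gave a dim signal of 3.59 to 5.55. In such bulk tissue, fewer macrophages and less RNA per macrophage cannot be told apart.

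Csf1r encodes the receptor for CSF1 and IL-34. It read 8.25, 7.40 and 7.42 in the controls (7.69 ± 0.49), 7.69, 7.62 and 7.87 at week 6 (7.73 ± 0.13), 7.55, 7.16 and 6.81 at week 15 (7.17 ± 0.37), and 7.63, 8.10 and 7.80 at week 29 (7.84 ± 0.24). All 3 week 15 arrays lay below every week 6 and week 29 array, and they overlapped the controls. Csf1r was 1.59-fold higher at week 29 than at week 15 (log2 difference 0.67 ± 0.23, adjusted p = 0.0400). That call was lost on leaving out any of 6 arrays, with a difference of 0.49 (adjusted p = 0.156) without week 15 replicate 3, 0.66 without week 15 replicate 2 and 0.67 without week 6 replicate 1 or 2. It was 0.54 without week 29 replicate 2 and 0.69 without week 29 replicate 3. After adjustment for the muscle score it was 0.47 (adjusted p = 0.596), and for the GAPDH value 1.03 (adjusted p = 0.0124). Against control, week 15 differed by -0.51 (95% interval -1.02 to -0.01, adjusted p = 0.192). Of the ligand genes, Csf1 stood 0.40 above control at week 15 (adjusted p = 0.0953) and Il34 stood at -0.34 (adjusted p = 0.200), and neither passed.

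Cd68 encodes a lysosomal membrane protein of phagocytes and Lyz2 the lysozyme of macrophages and other myeloid cells. Cd68 read 7.18, 6.55 and 6.47 in the controls, 6.40, 6.49 and 6.57 at week 6, 7.03, 6.52 and 6.27 at week 15, and 6.05, 6.78 and 6.34 at week 29. Lyz2 read 10.90, 10.28 and 10.22 in the controls, 10.02, 10.25 and 10.53 at week 6, 10.64, 9.77 and 9.24 at week 15, and 9.86, 10.49 and 9.94 at week 29. For both genes the 4 groups overlapped. Cd68 at week 29 differed from control by -0.35 (95% interval -0.85 to 0.16) and Lyz2 by -0.37 (-1.04 to 0.30), so differences of these sizes could not be resolved with 3 arrays.

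Cd163 encodes the receptor for haptoglobin-hemoglobin complexes and Mrc1 the macrophage mannose receptor. Cd163 read 7.08, 6.49 and 6.31 in the controls (6.62 ± 0.40), 7.06, 7.15 and 6.83 at week 6 (7.01 ± 0.16), 7.72, 5.70 and 5.16 at week 15 (6.19 ± 1.35), and 6.67, 6.95 and 6.31 at week 29 (6.64 ± 0.32). Mrc1 read 7.46, 7.03 and 6.79 in the controls (7.09 ± 0.34), 7.44, 7.43 and 7.59 at week 6 (7.49 ± 0.09), 7.61, 6.01 and 5.88 at week 15 (6.50 ± 0.96), and 7.14, 7.50 and 6.98 at week 29 (7.21 ± 0.26). For both genes, week 15 replicate 1 was the highest of the 12 arrays, and week 15 replicates 2 and 3 were the lowest. The 3 week 15 arrays spanned a 5.89-fold range for Cd163 and a 3.31-fold range for Mrc1. Mrc1 was lower at week 15 than at week 6 (-0.99 ± 0.36, adjusted p = 0.0456), although these groups overlapped. That call held on leaving out 1 array in 2 of 12 cases, without control replicate 1 or week 15 replicate 1, and the difference without 1 array ran from -1.54 to -0.68 (adjusted p = 4.28e-04 to 0.168). After adjustment for the muscle score it was -0.75 (adjusted p = 0.542), and for the GAPDH value -1.82 (adjusted p = 0.0109).

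C1qa, C1qb and C1qc encode the 3 chains of C1q, and in the RefSeq gene table they follow each other on chromosome 5 in the order C1qb, C1qc, C1qa with 0 genes between them. The promoter windows of C1qa and C1qb are shown because these neighbouring genes moved together on every array. Each window runs from 250 bases before the gene start to 50 bases after it, in RefSeq's GRCr8 assembly, 5′ to 3′ on the gene's strand. Capitals mark GGAAGT or its reverse complement, letters of the kind bound by ETS factors such as PU.1, a transcription factor that macrophages need for their development. The C1qa window is chr5:154419884-154420183 (minus strand), with matches 107 and 79 bases before the gene start. The C1qb window is chr5:154407778-154408077 (minus strand), with a match 61 bases before it.
C1qa: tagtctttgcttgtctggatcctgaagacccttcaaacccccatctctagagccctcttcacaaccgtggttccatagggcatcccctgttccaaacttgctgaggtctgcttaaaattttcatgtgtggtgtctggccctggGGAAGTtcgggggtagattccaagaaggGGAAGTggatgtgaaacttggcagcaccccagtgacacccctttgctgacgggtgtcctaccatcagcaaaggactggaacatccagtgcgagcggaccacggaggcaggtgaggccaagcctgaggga
C1qb: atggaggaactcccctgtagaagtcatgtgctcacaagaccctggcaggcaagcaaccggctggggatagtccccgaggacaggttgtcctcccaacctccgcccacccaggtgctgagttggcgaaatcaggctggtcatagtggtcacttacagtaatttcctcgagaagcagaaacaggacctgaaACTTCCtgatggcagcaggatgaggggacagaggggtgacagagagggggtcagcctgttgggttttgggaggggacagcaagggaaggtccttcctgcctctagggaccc
Promoter windows were found for 8 of the 10 genes, all except C1qc and Fcgr2b. GGAAGT, on either strand, was in the windows of 5 of the 8 (Cd68, Lyz2, Mrc1, C1qa and C1qb) and in 22.6% of all 33469 windows of 300 bases. The C/EBP letters TTGCNNAA were in 1 of the 8, Lyz2, against 10.6% of all windows, and the AP-1 letters TGANTCA in 1, Cd68, against 7.33%. These counts describe letters in the windows and not binding.

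The C1q chains gave nearly the same profile. C1qa read 9.54, 8.53 and 8.47 in the controls (8.84 ± 0.60), 8.71, 8.92 and 8.96 at week 6 (8.87 ± 0.13), 9.13, 8.26 and 7.54 at week 15 (8.31 ± 0.80), and 8.47, 8.98 and 8.55 at week 29 (8.67 ± 0.28). C1qb read 8.44, 7.64 and 7.47 in the controls, 7.72, 7.80 and 8.29 at week 6, 7.92, 7.29 and 6.86 at week 15, and 7.45, 8.05 and 7.57 at week 29. C1qc read 9.60, 8.74 and 8.66 in the controls, 8.89, 9.03 and 9.14 at week 6, 9.06, 8.33 and 7.93 at week 15, and 8.67, 9.23 and 8.68 at week 29. The highest array of each chain was control replicate 1 and the lowest was week 15 replicate 3. Taken as deviations from each chain's own 12-array mean, which ran from -1.13 to 0.87, the 3 chains lay within 0.03 to 0.29 of each other on an array, with a median of 0.10. With the deposited values and all 12 arrays no group difference passed for any chain, and the week 15 differences from control were -0.54, -0.49 and -0.56 for C1qa, C1qb and C1qc. The 95% interval for C1qa at week 15 was -1.30 to 0.23. With the GAPDH value as a covariate, C1qa (-1.31, adjusted p = 0.0475) and C1qc (-1.21, adjusted p = 0.0291) were called lower at week 15 than at week 6, against -0.56 and -0.58 without it. C1qc was then also called higher at week 29 than at week 15 (0.91, adjusted p = 0.0445), against 0.42 without it. Without week 15 replicate 1, all 3 chains were called lower at week 15 than at week 6 (-0.97 for C1qa, -0.86 for C1qb and -0.89 for C1qc).

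Cd14 encodes the co-receptor that hands bacterial endotoxin to TLR4, and its profile differed from that of the C1q genes. It read 8.51, 8.52 and 8.27 in the controls (8.44 ± 0.14), 7.97, 7.93 and 8.13 at week 6 (8.01 ± 0.10), 8.52, 8.45 and 8.49 at week 15 (8.48 ± 0.04), and 8.25, 8.03 and 7.60 at week 29 (7.96 ± 0.33). Every week 6 and week 29 array lay below every control and every week 15 array. At week 6 the difference from control was -0.42 (95% interval -0.73 to -0.11, adjusted p = 0.0826) and was not called, although it was called without week 29 replicate 1 (adjusted p = 0.0496) or replicate 3 (adjusted p = 0.0370), where the value is unchanged. The week 29 call against control held in 4 of 12 fits that left out 1 array. The difference was -0.30 (adjusted p = 0.164) without week 29 replicate 3, -0.44 (adjusted p = 0.126) without control replicate 1, -0.43 without control replicate 2, -0.56 without control replicate 3 and -0.51 without week 29 replicate 2. It stayed at -0.48, with the call lost, without week 6 replicate 1 or 2 or week 15 replicate 1. Cd14 was 1.39-fold higher at week 15 than at week 6 (0.47 ± 0.14, adjusted p = 0.0207), which was lost without week 6 replicate 1 (0.45), week 6 replicate 2 (0.43) or week 15 replicate 1 (0.46). It was lower at week 29 than at week 15 (-0.52 ± 0.14, adjusted p = 0.0124), a call kept whichever array was left out. Both calls between weeks were lost with the GAPDH value as a covariate (0.51, adjusted p = 0.117, and -0.56, adjusted p = 0.0527) and with the muscle score (0.36, adjusted p = 0.448, and -0.42, adjusted p = 0.416).

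Fcgr2b encodes the Fc receptor that restrains activation by immune complexes, and it is also expressed by B cells. It read 6.26, 5.35 and 5.54 in the controls (5.72 ± 0.48), 5.02, 5.15 and 5.61 at week 6 (5.26 ± 0.31), 6.22, 5.65 and 5.64 at week 15 (5.84 ± 0.33), and 4.64, 5.02 and 4.74 at week 29 (4.80 ± 0.20). All 3 week 29 arrays lay below all arrays of the other groups, and the signal was dim, under 6 in 10 of 12 arrays. Fcgr2b was 2.05-fold higher at week 15 than at week 29 (week 29 minus week 15 -1.04 ± 0.24, adjusted p = 0.00486). This call was kept whichever array was left out and lost with the GAPDH value as a covariate (-0.62, adjusted p = 0.0840) or the muscle score (-0.94, adjusted p = 0.271). The difference of week 29 from control had a 95% interval of -1.44 to -0.40. That call was lost without control replicate 1 (-0.65, adjusted p = 0.0937), control replicate 3 (-1.01), week 29 replicate 1 (-0.84), week 29 replicate 2 (-1.03) or week 29 replicate 3 (-0.89). With the GAPDH value as a covariate the week 29 differences from control were -0.51 for Fcgr2b (adjusted p = 0.278) and -0.51 for Cd14 (adjusted p = 0.196), and with the muscle score -0.89 (adjusted p = 0.0619) and -0.45 (adjusted p = 0.0980).

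In none of the 10 genes did 2 groups that are neighbours in the order of group means differ by a called amount. Against control, 0 of 10 genes were called at week 6, where 7.54% of all probe sets were called, and 1 gene (Cd14) had an unadjusted p under 0.05 in limma, as did 26.3% of all probe sets. At week 15, 0 of 10 were called against 7.91% of all probe sets, again with 1 gene (Csf1r) at an unadjusted p under 0.05, as for 24.9% of all probe sets. The means of 8 of 10 genes lay below control at week 15, with a median difference of -0.50 against 0.06 over all probe sets. At week 29, 2 of 10 were called, both lower, where 15.2% of all probe sets were called and 7.44% were called lower. These 2 genes were also the ones whose week 29 arrays all lay below the controls, as in 15.7% of all probe sets. The NMBA weeks share the same 3 control arrays in these comparisons.

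**Figure D2:**
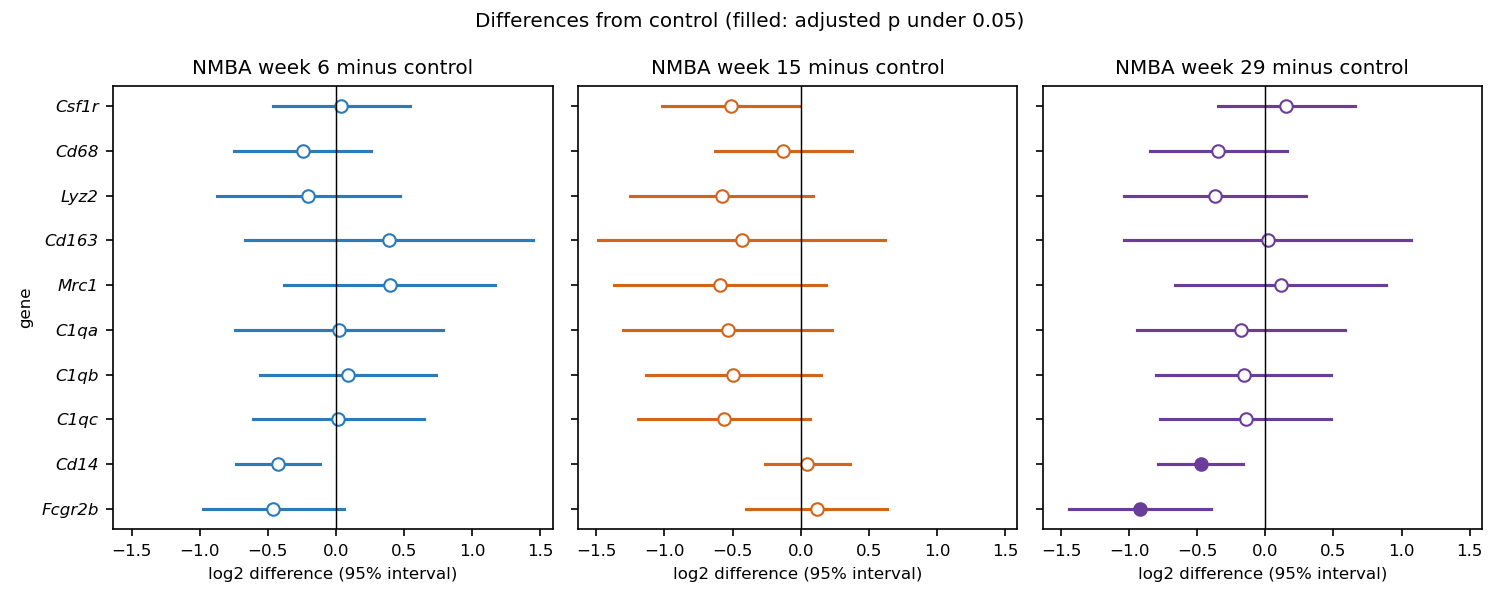
Log2 difference from control of each macrophage gene at week 6, week 15 and week 29, with 95% intervals from the limma fit over 12 arrays. Filled points passed an adjusted p under 0.05. They are Cd14 and Fcgr2b at week 29, at -0.48 and -0.92.

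From week 6 to week 15, 2 of 10 were called, Cd14 higher and Mrc1 lower, where 37.8% of all probe sets were called. From week 15 to week 29, 3 of 10 were called, Csf1r higher and Cd14 and Fcgr2b lower, where 35.4% of all probe sets were called. With the GAPDH value as a covariate the called genes differed. From week 6 to week 15 they were then 5 of 10, all lower, with 15.6% of all probe sets called: Mrc1, Csf1r (-1.01, adjusted p = 0.0297), Cd163 (-1.95, adjusted p = 0.0275), C1qa and C1qc. From week 15 to week 29 they were 3 of 10, all higher, with 22.3% of all probe sets called: Csf1r, Mrc1 (1.36, adjusted p = 0.0153) and C1qc. Without control replicate 1, Csf1r (-0.55, adjusted p = 0.0277) and Fcgr2b (0.58, adjusted p = 0.0325) were also called from week 6 to week 15. Fcgr2b (0.75) was called there without week 6 replicate 3 as well. Between weeks 6 and 29, 0 of 10 genes and 0 of all probe sets passed in limma, and 0 of the 10 genes and 3005 of all probe sets had an unadjusted p under 0.05 (9.68%). Groups were fully separated for few of the genes. Cd14 at week 6 lay below all controls, 1 of 10 genes, as did 17.2% of all probe sets. Every week 15 array lay above every week 6 array for 2 of 10 (Cd14 and Fcgr2b) and below for 1 (Csf1r), against 27.8% and 21.0% of all probe sets. Every week 29 array lay above every week 15 array for 1 (Csf1r) and below for 2 (Cd14 and Fcgr2b), against 21.4% and 23.2%, and below every week 6 array for 1 (Fcgr2b), against 6.08%. A moderated F test across the 4 groups called Cd14 (adjusted p = 0.0173) and Fcgr2b (adjusted p = 0.0149), 2 of 10, where it called 35.1% of all probe sets.

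Arrays of a group differed more for these genes than for the median probe set in controls and at weeks 15 and 29, and by about as much at week 6. Their median SD was 0.44 among control arrays, 0.13 among week 6 arrays, 0.56 among week 15 arrays and 0.32 among week 29 arrays, against medians of 0.12, 0.11, 0.16 and 0.13 over all probe sets. Differences between the 4 groups made up a median of 29.8% of the sum of squares of a macrophage gene and 55.1% of that of a probe set overall. Cd68 was lowest at 18.4%, and Cd14 and Fcgr2b stood highest at 70.8% and 68.0%. These shares are not scaled for degrees of freedom. The moderated F, which is, ran from 0.83 for Cd68 to 7.89 for Fcgr2b, with 3.28 for Csf1r and 2.72 for Mrc1.

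The same arrays were high for most of the genes. Control replicate 1 was the highest control for 9 of 10 genes, all except Cd14, and for 36.2% of all probe sets. Week 15 replicate 1 was the highest of its group for 10 of 10 genes (32.1% of all probe sets) and week 15 replicate 3 the lowest for 9 of 10 (34.4%). Week 6 replicate 3 was the highest of its group for 9 of 10 genes (35.9%), all except Cd163, and week 29 replicate 2 for 9 of 10 (29.5%), all except Cd14. Scores of several other lists were highest in the same 4 arrays. Among them were 30 other macrophage genes, 23 lysosome genes, 13 dendritic cell and MHC class II genes and 15 fibroblast genes. The endothelial, smooth muscle, mast cell, lymphocyte, squamous epithelial and skeletal muscle scores were highest in other arrays in some groups. The fibroblast score read 10.59, 9.83 and 10.32 in the controls, 9.91, 9.90 and 10.16 at week 6, 9.47, 9.24 and 9.01 at week 15, and 9.78, 10.21 and 9.74 at week 29. The GAPDH 3′ minus 5′ value was also highest in 3 of these 4 arrays, at 0.53 in control replicate 1, 0.60 in week 15 replicate 1 and 0.21 in week 29 replicate 2. In week 6 replicate 3 it was the lowest of its group, at 0.07. The part of connective tissue and of RNA quality in the shared array pattern was not tested.

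**Figure D3:**
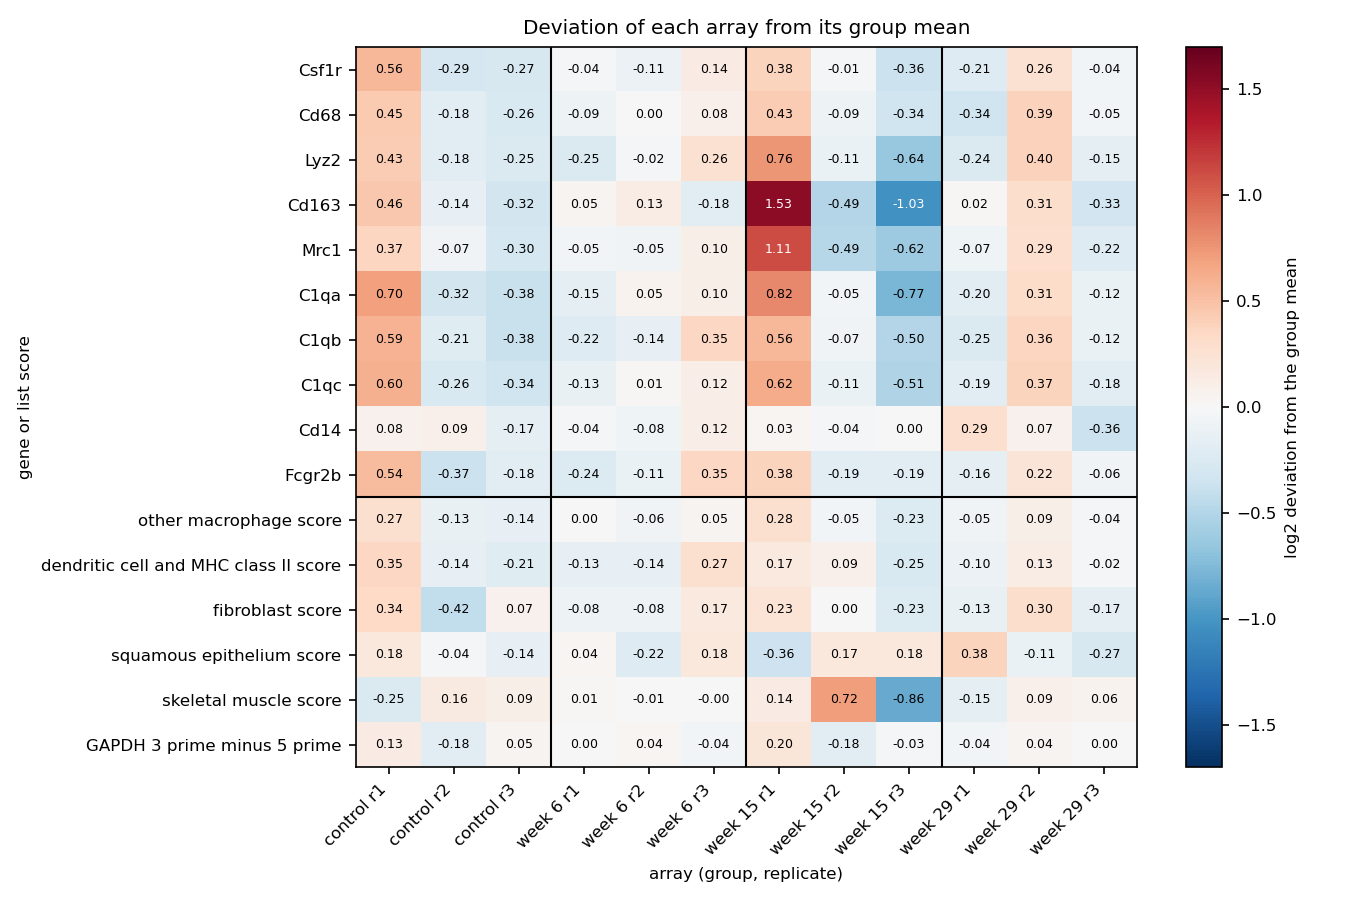
Deviation of each array from the mean of its group in log2 units, with genes and list scores in rows and the 12 arrays in columns. Warm and cold colours mark arrays above and below their group mean. Week 15 replicate 1 is above its group mean for all 10 genes, and control replicate 1 is above it for all 10.

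The week 15 comparisons depended on replicate 1 of that week, an array chosen for this check after its values were seen. Without it, Cd163 (-1.20, adjusted p = 0.0224) and Mrc1 (-1.15, adjusted p = 0.0109) were called lower than control, 2 of 10 where 4.40% of all probe sets were called lower. Against week 6, 7 of 10 genes were called lower without it, where 15.7% of all probe sets were called lower. These were Csf1r (-0.74), Lyz2 (-0.75), Cd163 (-1.59, adjusted p = 0.00103), Mrc1 (-1.54, adjusted p = 4.28e-04) and the 3 C1q genes. With week 29 as the later group, 3 genes were called higher than at week 15, Csf1r by 0.86, Cd163 by 1.21 and Mrc1 by 1.26 on the log2 scale, and Cd14 and Fcgr2b were called lower. That made 5 of 10 where 30.9% of all probe sets were called. With all arrays, 12 of 15 fibroblast genes and 6 of 30 skeletal muscle genes were called lower than control at week 15. So were 6 of 19 endothelial, 4 of 8 neural and 3 of 10 smooth muscle genes, but 0 of 17 squamous epithelial genes. Of all probe sets, 7.91% were called in that comparison, in either direction. The part of tissue composition in the week 15 values was not tested.

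**Figure D4:**
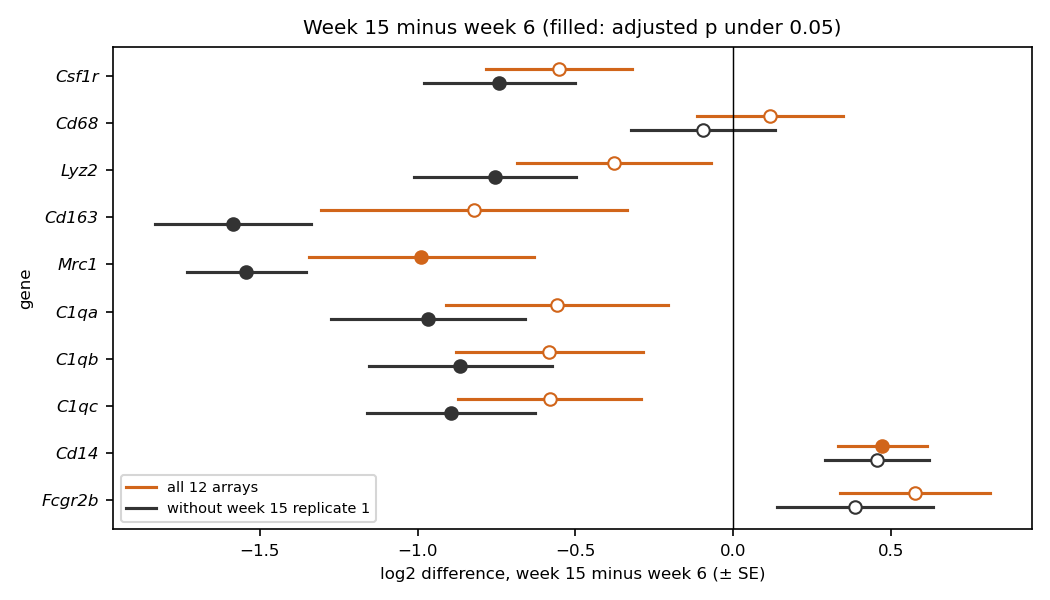
Log2 difference of week 15 minus week 6 for each macrophage gene, with SE bars, from all 12 arrays and without week 15 replicate 1. Filled points passed an adjusted p under 0.05, which were 2 genes with all arrays and 7 without that replicate.

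Further genes of the macrophage system were taken from lists set up with the 10 genes. Their counts of calls are read against all probe sets, of which 7.54%, 7.91% and 15.2% were called against control at weeks 6, 15 and 29, and 7.44% were called lower at week 29. Of 30 measured genes of 39 on a list of other macrophage markers, 4 fell at week 29 against control and 0 rose, with a median difference of -0.13 against 0.04 over all probe sets. They were Cd53, a tetraspanin of leukocytes (-0.91, adjusted p = 0.0181), Mpeg1, a pore-forming protein of phagocytes (-0.84), Gpnmb, a glycoprotein of lipid-laden macrophages (-0.89), and Apoe, the lipid carrier apolipoprotein E (-0.57). From week 6 to week 15, 5 of the 30 rose and 4 fell, where 37.8% of all probe sets were called. Adgre1, which did not pass against control, was among those that fell (-0.78, adjusted p = 0.0438). Gpnmb and Apoe rose from week 6 to week 15 (by 1.22 and 0.81) and then fell to week 29 by 1.77 and 1.06. Lyve1, a hyaluronan receptor of lymphatic vessels and of some macrophages, was lower at week 15 than in controls (-0.73, adjusted p = 0.0383) and lower than at week 6 (-1.02), and it was also on the endothelial list. Mpeg1 was the 1 gene of the list called at week 6 (-1.11, adjusted p = 0.0259).

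Of 17 measured genes of 18 around the endotoxin receptor, 4 fell and 0 rose at week 29 against control, with a list median of -0.33. They were Nfkbia, the inhibitor of NF-kappa-B (-1.01, adjusted p = 0.00962), the adaptors Ticam1 (-0.57) and Myd88 (-0.53), and Ly86, the partner of a TLR4 homologue (-0.69). From week 6 to week 15, 9 of the 17 rose and 0 fell, where 20.3% of all probe sets rose. From week 15 to week 29, 7 fell and 0 rose, where 18.3% of all probe sets fell. Tlr4 itself (-0.33, adjusted p = 0.0660) and its partner Ly96 (-0.47, adjusted p = 0.102) did not pass at week 29.

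Of 12 measured genes of 13 on the Fc receptor list, 3 fell and 0 rose at week 29 against control. These were Inpp5d, the lipid phosphatase recruited by the receptor that Fcgr2b encodes (-0.77, adjusted p = 0.0144), the tyrosine phosphatase Ptpn6 (-0.82) and the kinase Syk (-0.40). The activating receptor genes Fcgr1a (-0.04) and Fcgr3a (-0.20) and their signalling chain Fcer1g (-0.25) did not pass. At week 6, Syk (-0.57) and Inpp5d (-0.59) were also lower than control. Both were higher at week 15 than at week 6 (by 0.72 and 0.57), and 0 of the 12 genes were called at week 15 against control.

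Complement genes went in both directions. Of 18 measured of 25, 2 rose and 2 fell at week 29 against control. Cd55, a brake on complement at the cell surface, rose (0.84, adjusted p = 0.0269), as did C9, a part of the membrane pore (0.36). Itgax, the alpha chain of complement receptor 4 (-1.26), and Cd93, a membrane glycoprotein of endothelium and myeloid cells (-0.90), fell. The proteases that bind C1q, C1r (-0.39) and C1s (-0.50), did not pass. At week 15, Cfi, the protease factor I, was higher than control (0.78, adjusted p = 0.0117) and Cd93 was lower (-0.52, adjusted p = 0.0217).

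Of 14 measured genes of 20 for scavenger receptors and heme and iron handling, 1 rose and 1 fell at week 29, Cd36, a fatty acid and lipoprotein receptor (0.80), and Scarb1, the HDL receptor (-1.12). At week 15, 3 fell and 1 rose against control. Colec12, a collectin scavenger receptor (-1.35), Cd36 (-1.24) and Slc40a1, the iron exporter (-0.81), fell, and Hmox1, which breaks down heme, rose (0.66, adjusted p = 0.0274). Of 23 measured genes of 26 on the lysosome list, 2 rose at week 29, Gaa, the acid glucosidase (0.76), and Psap, the precursor of sphingolipid activators (0.31), and Ctsc, cathepsin C, fell (-0.58). Of 14 measured genes of 17 on the list of CSF1 signalling and myeloid regulators, 1 was called against control at week 29, Plcg2, a phospholipase (-0.33), and 1 at week 15, the transcription factor Cebpa (0.58).

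Antigen-presenting and granulocyte genes are the nearest other myeloid markers. Of 13 measured genes of 16 for dendritic cells and MHC class II, 9 fell and 0 rose at week 29 against control, with a median of -1.16. Irf8, a transcription factor of dendritic cells, differed by -1.77 (adjusted p = 1.96e-05), RT1-Da, an MHC class II chain, by -1.94, and Cd74, the MHC class II invariant chain, by -1.60. The score of this list was 7.91 to 8.47 in the controls, and 7.32 to 7.73, 7.76 to 8.19 and 7.01 to 7.24 in the arrays of weeks 6, 15 and 29, so its week 29 arrays lay below the others. Its part in the lower Cd14 and Fcgr2b signals was not tested. The squamous epithelial score was 11.08 to 11.40 in the controls, and 10.22 to 10.62, 11.34 to 11.88 and 9.77 to 10.43 in the arrays of weeks 6, 15 and 29, and 14 of its 17 genes fell at week 29. At week 15, S100a9 (2.73) and S100a8 (1.62), calcium-binding proteins of neutrophils and of stressed squamous epithelium, were the 2 of 13 genes that rose on the monocyte and neutrophil list.

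The profile of the C1q genes was also compared with that of the other macrophage genes and of all other named genes. Pearson's r with the mean of the centred C1q signals over the 12 arrays was 0.95 for Lyz2, 0.90 for Csf1r, 0.88 for Mrc1, 0.85 for Cd163, 0.73 for Cd68, 0.27 for Fcgr2b and -0.11 for Cd14. After the group means were taken out, r was 0.89 for Fcgr2b and 0.23 for Cd14. Outside the set, the 10 genes with the highest r were Cybb (0.98), Clec4a3 (0.97), Adgre1 (0.95), Fxyd2 (0.94), Cndp1 (0.94), Cd300c2 (0.93), Pilra (0.93), Vsir (0.92), Fbln5 (0.92) and Serping1 (0.92). Cybb encodes a subunit of the phagocyte oxidase and Adgre1 the F4/80 antigen. None of the 10 passed the F test across the groups (adjusted p = 0.0972 to 0.540). These r values describe 12 arrays that the genes share, groups included.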

How the data were processed

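RNA of 12 rat esophagus samples was measured on 1 Affymetrix array each. The submitters' processing notes name Affymetrix Expression Console as the tool behind the deposited log2 probe set signals. Its summarization method is not stated in what was used here. Detection calls were not used here, so signal was not set against background, and precision is limited by the number of arrays. Values were used as deposited. Of the table's 31099 probe sets, 57 were array controls and stayed out of the tests. The platform annotation gave 20826 probe sets 1 symbol and 436 several, and the probe set with the highest mean stood for a gene; each macrophage gene had 1.

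The 4 groups were fitted together with lmFit and eBayes of limma 3.58.1, run in R 4.3.3, which left 8 residual degrees of freedom. Tests were two-sided and the fit was checked on simulated data. Benjamini-Hochberg adjustment covered all 31042 probe sets tested, and a call needed an adjusted p under 0.05. Each NMBA week was compared with control and with the other weeks, 6 comparisons in all. A list score is the mean signal of a list's genes on 1 array. No 2 arrays were the same throughout, with 7 to 47 probe sets of equal value in a pair. Alternatives were array scaling, a filter on dim probe sets, the arrays and prior in the fit, muscle score and GAPDH covariates, a replicate block, the mean of a gene's probe sets and leaving out each array.

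The 10 genes and 17 lists were chosen with earlier results of these data known. Text names the 10 genes, up to 4 called genes of a list per comparison by lowest p, and the 10 genes with the highest r with the mean of the centred C1q signals, leaving out provisional names. Adgre1 and the ligand, partner and signalling-chain genes were named for their roles, after their values were seen. Promoter windows are RefSeq's for GRCr8 and were matched by gene identifier. No genome coordinates of probe sets were used here.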

Additional observations from a re-analysis of the deposited data

Results flagged for a closer look

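Differences between NMBA weeks, tested directly in limma, passed an adjusted p under 0.05 in 5 cases among the macrophage genes. Mrc1 at week 15 minus week 6 was -0.99, with 2 of 3 week 15 arrays below all week 6 arrays. Cd14 was 0.47 higher at week 15 than at week 6, with all 3 week 15 arrays above the week 6 arrays. Csf1r was 0.67 higher at week 29 than at week 15, with all 3 arrays above. Cd14 was -0.52 and Fcgr2b -1.04 at week 29 minus week 15, with all 3 week 29 arrays below the week 15 arrays. Groups of 3 arrays were not tested for single outlying arrays.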

How the results depend on the processing

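No difference of the macrophage genes changed sign while called, and the call counts moved with the setting. With all arrays and the deposited values, the macrophage genes called were 2 at week 29 against control, 2 at week 15 against week 6, 3 at week 29 against week 15, 2 in the F test, and 0 in the other comparisons. Leaving out 1 array gave 0 to 1 at week 6 against control, 0 to 2 at week 15, 0 to 2 at week 29, 0 to 7 at week 15 against week 6, 2 to 5 at week 29 against week 15, 0 at week 29 against week 6, and 1 to 4 in the F test. Over all probe sets, the week 29 calls against control then ran from 274 to 6120, the week 6 calls from 1 to 3454 and the week 15 calls from 881 to 3057. The calls at week 15 against week 6 ran from 8965 to 11704 and those at week 29 against week 15 from 8115 to 11490. Those at week 29 against week 6 stayed at 0, and the F test calls ran from 8861 to 11232. At week 29 against control, only Fcgr2b was called after subtracting array medians, after quantile normalization and with only these 2 groups. The same held without the week 15 arrays, an alternative added after seeing the data. Without dim probe sets, Fcgr2b was left out of the fit and Cd14 stayed called (adjusted p = 0.0351 in limma). With the muscle score or the GAPDH value as a covariate, 0 genes were called. At week 15 against week 6, 1 was called after quantile normalization, 0 with the muscle score and 5 with the GAPDH value, where Csf1r, Cd163, C1qa and C1qc were gained and Cd14 was lost. At week 29 against week 15, 0 were called with the muscle score and 3 with the GAPDH value, which called 6915 of all probe sets. Mrc1 and C1qc were gained with the GAPDH value, and Cd14 and Fcgr2b were lost. The F test called Cd14 without dim probe sets, where Fcgr2b was left out, 0 genes with the muscle score and 1 with the GAPDH value. The muscle score differed between the groups (12.70 ± 0.01 at week 6, 11.21 ± 0.80 at week 15), so adjusting for it also takes up group differences. The share of all probe sets called with the muscle score is not given here. Those losses are therefore not read as particular to the macrophage genes. At week 6 against control, 1 was called with only those 2 groups, and 1 with array quality weights, also added after seeing the data. The cause was not tested, except that fewer arrays or groups leave fewer degrees of freedom. Deviations from the group means gave r of -0.41 to 0.29 over 18 pairs of same-numbered arrays, with a median of 0.08. Differently numbered arrays gave -0.34 to 0.52 over 36 pairs, with a median of -0.02. The labels do not say whether the numbers pair the samples, and these r values cannot decide it. With a replicate block, the counts of called genes were 0, 0, 2, 2, 3, 0 and 2, and over all probe sets 2420, 2432, 4556, 11073, 10521, 0 and 10065, in the order of weeks 6, 15 and 29 against control, week 15 against 6, week 29 against 15, week 29 against 6, and the F test.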
